A study of Rattus norvegicus with 36 samples.

Results

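The aquaporins Aqp1, Aqp3, Aqp4 and Aqp5 were followed in rat vocal fold (VF) mucosa after surgical injury and in cultured VF fibroblasts. They are 4 of the 14217 genes that the array names and were found by gene symbol: of 31042 probe sets, 7 carried a single annotated symbol equal to one of them, namely 2 for Aqp1, 3 for Aqp4 and 1 each for Aqp3 and Aqp5. A probe set is a group of short oligonucleotides on the array that together read a transcript, or in some cases several. Its value here is a log2 signal, so that a difference of 1 is a change in level by a factor of 2.

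Aquaporins are membrane channels that let water cross cells along osmotic gradients. Aqp1 is the water channel of red blood cells and of the endothelium of many capillaries, and it is also made by some fibroblasts. Aqp3 carries glycerol as well as water and sits in the basolateral membrane of stratified and airway epithelia. Aqp4 is anchored by the dystrophin complex in the membranes of astrocytes and fast muscle fibers, and is also found in airway epithelium. Aqp5 lies in the apical membrane of serous gland cells and of some surface epithelia, where it takes part in fluid secretion. The VF surface liquid that these channels serve keeps the mucosa pliable during voicing.

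The mucosa came from male Fischer 344 rats that were 120 days old at the start. Injured (post-injury, PI) and age-matched uninjured control mucosae were taken at 3, 14 and 60 days, when the rats were 123, 134 and 180 days old, and the tissue of 4 rats was pooled for each array. The labels give 5 PI and 3 control arrays at 3 days, 5 and 3 at 14 days, and 5 and 2 at 60 days, and they were followed here although the methods count the 60-day arrays differently. Fibroblasts were grown out of explants and collected at passage 1: 3 cultures were naive (uninjured), 4 were from scar of the 60-day time, 3 were scar fibroblasts given 50 nM siRNA against gp46 (Serpinh1, a collagen chaperone) for 1 h and cultured for another 24 h, and 3 were scar fibroblasts given scramble siRNA in the same way. The labels give Fischer 344 as the only strain. The rats of all cultures, naive ones included, were 120 days old at the start and 180 days old at harvest, with 1 rat for each array. Each array of a group was a separate pool or culture. Calls used an adjusted p under 0.05 from limma, a linear model fitted to all probe sets with Benjamini-Hochberg adjustment over all of them.

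The sorted signals of all 36 arrays had been brought to the same distribution, and no pair of arrays correlated above 0.9969. The 3-day PI array 5, the 14-day control array 3 and the 60-day PI array 4 deviated from their groups in a shared direction (Pearson's r of the deviations between 0.40 and 0.58), and values without them are given where they matter. The mucosa held the markers of its epithelium, with a mean log2 signal of the 11 measured superficial epithelium markers between 10.83 and 12.53, and it also held muscle, with 11.13 to 13.19 for the 10 measured fast muscle markers. In the 13 fibroblast arrays the same superficial epithelium markers averaged between 5.36 and 5.69. There the 9 measured fibroblast markers averaged between 13.44 and 13.82.

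Differences of Aqp1, Aqp3, Aqp4 and Aqp5 in injured mucosa or between cultures are described below. The 100 bases just before the transcription start are shown for Aqp1, Aqp3 and Aqp5, and not for Aqp4. They are RefSeq sequences of build GRCr8, read 5′ to 3′ on the gene's own strand. Aqp1 lies at chr4:85812684-85812783 on the plus strand, Aqp3 at chr5:61040684-61040783 on the minus strand, and Aqp5 at chr7:132601428-132601527 on the plus strand. Capitals mark exact matches, on either strand, to the motif TATAAA of many core promoters, to GGGCGG, which Sp1 proteins bind, or to TGGAAA from the tonicity-responsive element.
Aqp1: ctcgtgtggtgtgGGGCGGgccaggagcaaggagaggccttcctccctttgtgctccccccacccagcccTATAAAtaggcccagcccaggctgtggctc
Aqp3: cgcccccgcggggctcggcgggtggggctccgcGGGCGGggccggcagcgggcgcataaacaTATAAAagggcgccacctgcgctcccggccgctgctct
Aqp5: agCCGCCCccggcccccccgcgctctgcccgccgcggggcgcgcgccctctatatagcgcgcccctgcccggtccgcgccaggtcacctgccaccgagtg
Aqp1 and Aqp3 held TATAAA, starting 30 and 38 bases before the transcription start, and all 3 genes held GGGCGG or its complement. Over 33469 promoters of the same length, 5.78% held TATAAA, 21.6% GGGCGG and 7.24% TGGAAA, which none of these 3 windows held.

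The aquaporin probe sets called after injury did not all move the same way. At 3 days PI Aqp5 was lower by a factor of 2.01, 1 probe set of Aqp1 was lower by 0.41 on the log2 scale, 1 of Aqp4 was higher by 0.58, and Aqp3 did not pass the test. The Aqp5 call held in all 22 alternative analyses, while the Aqp1 call was lost in 6 of 21 and the Aqp4 call in 8 of 20. By 14 and 60 days no aquaporin differed from its controls past the threshold.

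In counts, 3 of the 7 aquaporin probe sets were called at 3 days PI, 2 lower and 1 higher, beside 23% of all probe sets in either direction (12% lower and 11% higher). None was called at 14 days, beside 1.92% of all probe sets, nor at 60 days, beside 0.0387%. Injured and control arrays did not overlap for 3 of the 7 at 3 days, beside 28.4% of all probe sets, for 2 at 14 days, beside 11.2%, and for 2 at 60 days, beside 11.7%. From 3 to 14 days PI 1 was called beside 30.6% of all (1 without overlap, beside 24.3%), and from 14 to 60 days none beside 1.37%. Across the 3 PI groups 4 were called beside 34%. Across the 3 control groups none was called beside 0%, although 1814 probe sets of the array had an unadjusted p under 0.05 in limma there. The injury effect differed between times for none of the 7, beside 6.58% of all probe sets for 3 against 14 days, 11.4% for 3 against 60 days and 0.0548% for 14 against 60 days.

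At 3 days PI Aqp5 showed the largest difference of the 7 aquaporin probe sets. Its log2 signal in 3-day control mucosa was 12.98, 12.31 and 12.75, and in 3-day PI mucosa it was 11.84, 11.52, 11.41, 11.75 and 11.84. Every injured pool lay below every control pool. Aqp5 fell by 1.01 on the log2 scale (SE 0.16, 95% confidence interval -1.35 to -0.67), a level 2.01-fold lower, with an adjusted p of 0.000112 in limma. The call held in all 22 alternatives computed, between -1.19 and -0.86. In bulk tissue, fewer cells of a type and less RNA per cell cannot be told apart.

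At 14 days PI the Aqp5 signals were 12.31, 12.15, 12.40, 12.50 and 12.50, and the controls read 12.54, 12.82 and 12.85. The groups still did not overlap, but the difference of -0.36 (SE 0.16) missed the threshold with an adjusted p of 0.406 in limma. At 60 days PI the signals were 12.05, 12.58, 12.44, 11.78 and 12.34 against 12.77 and 12.70 in the control arrays, a difference of -0.50 (SE 0.19) with an adjusted p of 0.463 in limma. Against the 8 controls of all ages the 60-day difference was -0.48 and passed (adjusted p = 0.0254). Those controls include younger rats, so age and injury cannot be told apart there. Within injured mucosa, Aqp5 rose by 0.70 (SE 0.14) from 3 to 14 days, with all 14-day pools above all 3-day pools and an adjusted p of 0.000733 in limma. From 14 to 60 days the difference was -0.13 (adjusted p = 0.827).

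Whether the Aqp5 injury effect itself differed between times was tested directly. The effect at 3 days minus that at 14 days was -0.64 (SE 0.23, adjusted p = 0.104 in limma), and 3 days minus 60 days was -0.51 (SE 0.25, adjusted p = 0.203). Both passed the threshold when the 3 arrays that deviated together were left out, with -0.74 (adjusted p = 0.0359) and -0.67 (adjusted p = 0.0467) in limma. Both also passed with array weights, and the first passed without the 3-day control array 2, which had the lowest Aqp5 signal of its group. The first did not pass in 24 of 27 alternatives (adjusted p up to 0.298 in limma). The second did not pass in 24 of 26 (up to 0.451).

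**Figure D1:**
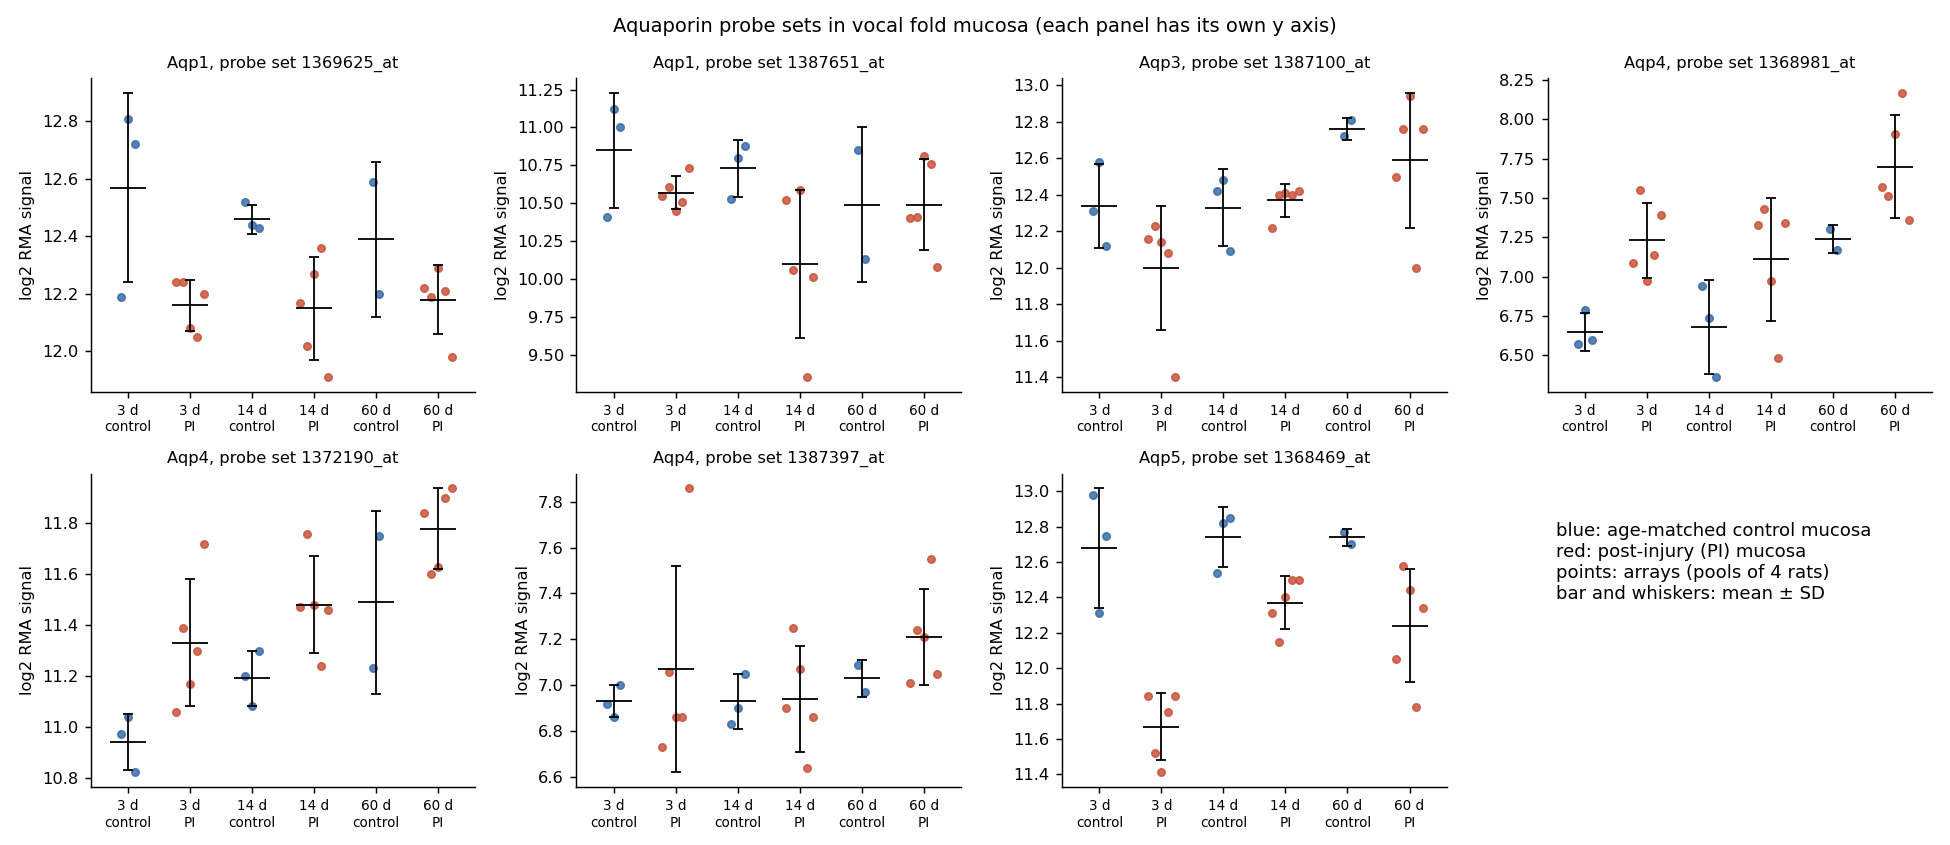
Log2 RMA signal of the 7 aquaporin probe sets on the 23 mucosa arrays; each point is a pool of 4 rats, the horizontal bar is the group mean and the whiskers are 1 SD, and each panel has its own y axis. The 5 Aqp5 signals at 3 days PI lie between 11.41 and 11.84, below all control arrays, and the 3-day PI array 5 is the lowest of its group for Aqp3 at 11.40.

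Aqp4 was measured by 3 probe sets, which did not respond alike. Probe set 1368981_at read 6.57, 6.79 and 6.60 in 3-day control mucosa and 7.09, 7.55, 6.97, 7.14 and 7.39 in 3-day PI mucosa. All injured pools were higher, and the rise of 0.58 (SE 0.20) reached an adjusted p of 0.0426 in limma. The call was lost without the 3-day PI array 2, 4 or 5 or the 3-day control array 1, 2 or 3, which is 6 of the 8 arrays, with adjusted p values from 0.0565 to 0.138, with the controls of all ages pooled (0.0624) and with the replicate block (0.12).

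Probe set 1372190_at read 10.97, 11.04 and 10.82 in the 3-day control pools and 11.06, 11.39, 11.17, 11.30 and 11.72 after injury. Again no injured pool was as low as a control pool, but the difference of 0.38 (SE 0.14) missed the threshold with an adjusted p of 0.0541 in limma. It passed in 6 of 20 alternatives, among them the fit of all 36 arrays (0.0297), array weights (0.0038) and the omission of the 3-day PI array 1 (0.0266). The third Aqp4 probe set, 1387397_at, differed by 0.15 (SE 0.19, adjusted p = 0.636), and its sign turned without the 3-day PI array 5. Its group means lay between 6.85 and 7.21 in all 10 groups, fibroblasts included.

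The signals of 1368981_at and 1372190_at differed across the 3 PI groups, in which age rises along with time after injury. For 1372190_at the mean was 11.33 at 3 days, 11.48 at 14 days and 11.78 at 60 days (SD 0.25, 0.19 and 0.16, n = 5 each; moderated F test in limma, adjusted p = 0.0157). For 1368981_at it was 7.23, 7.11 and 7.70 (SD 0.24, 0.39 and 0.33; adjusted p = 0.0242), a call that was lost without the 60-day PI array 3 (adjusted p = 0.069) or 4 (0.0752), without the 3 arrays that deviated together (0.0591) and with array weights (0.0571). The control means of 1372190_at were 10.94, 11.19 and 11.49 at the same times, and the same test over the control groups gave an adjusted p of 0.757 with 3, 3 and 2 arrays. Those of 1368981_at were 6.65, 6.68 and 7.24 (adjusted p = 0.864 in that test). Its group means spanned 0.59 in the controls and 0.59 in the PI groups.

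Against the 60-day controls alone, 1368981_at differed by 0.47 (SE 0.23, adjusted p = 0.643 in limma) and 1372190_at by 0.29 (SE 0.16, adjusted p = 0.70). Pooling the 8 controls of all ages gave 0.89 (adjusted p = 0.00355) and 0.61 (adjusted p = 0.00637). That pooling mixes 60-day PI tissue with controls of younger rats, and age and injury cannot be told apart in it.

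Aqp1 was lower after injury in 1 of its 2 probe sets, 1369625_at. The 3-day control pools read 12.19, 12.81 and 12.72 and the 3-day PI pools 12.24, 12.24, 12.08, 12.05 and 12.20, so that control array 1 lay among the injured pools. Aqp1 fell by 0.41 (SE 0.12) with an adjusted p of 0.0199 in limma. The call was lost without the 3-day control array 2 (-0.30, adjusted p = 0.137) or 3 (-0.34, adjusted p = 0.118), when the 3-day arrays were fitted alone (adjusted p = 0.0531), when all 36 arrays were fitted together (adjusted p = 0.297), with the replicate block (adjusted p = 0.0679) and under the lognormal-normal model.

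At 14 days all PI pools, between 11.91 and 12.36, lay below the control pools at 12.52, 12.44 and 12.43, with a difference of -0.32 (SE 0.12, adjusted p = 0.286 in limma). The other Aqp1 probe set, 1387651_at, differed by -0.28, -0.63 and 0.00 at 3, 14 and 60 days, with adjusted p values of 0.446, 0.236 and 0.998. Of the 12 endothelium markers measured, 6 rose at 3 days PI and none fell, beside 11% of all probe sets higher and 12% lower. Among the 6 was Pecam1, an adhesion molecule of endothelial junctions, which rose by 0.84 (adjusted p = 5.32e-05 in limma). The mean log2 signal of the 12 markers was 8.92 to 9.24 in the 3-day control pools and 9.28 to 9.56 after injury. None of the 5 red blood cell markers measured passed the test at 3 days, beside 23% of all probe sets called. The part of either cell type in the Aqp1 signal was not tested.

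Aqp3 did not pass the test between injured and control mucosa at any time, and its mucosa group means ran from 12.00 to 12.76. At 3 days the control pools read 12.31, 12.58 and 12.12 and the PI pools 12.16, 12.23, 12.14, 12.08 and 11.40, a difference of -0.33 (SE 0.18) with an adjusted p of 0.216 in limma. Against the 8 controls of all ages it was -0.44 and passed (adjusted p = 0.0279). Those controls include older rats, with a mean of 12.76 at 60 days against 12.34 at 3 days, so age and injury cannot be told apart there. The differences at 14 and 60 days were 0.04 and -0.17, with adjusted p values of 0.988 and 0.874. Across the PI groups Aqp3 passed the moderated F test (means 12.00, 12.37 and 12.59; adjusted p = 0.0187), and it no longer passed without the 3-day PI array 5 (adjusted p = 0.053). Each of the 3 arrays that deviated together was the lowest of its group for Aqp3, at 11.40, 12.09 and 12.00.

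**Figure D2:**
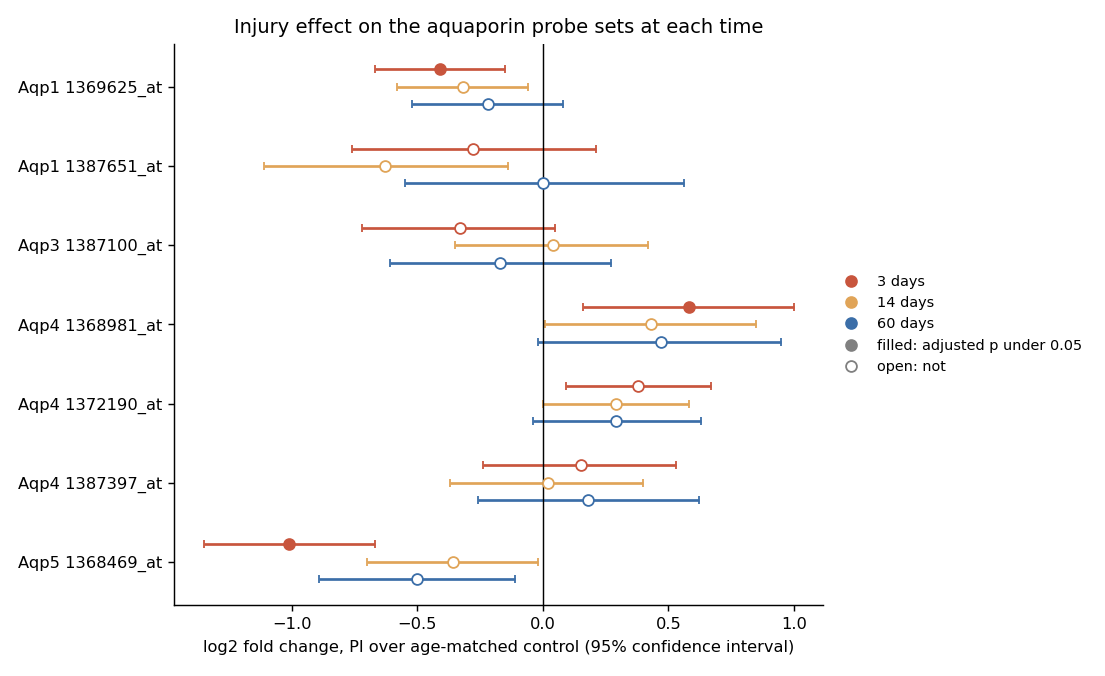
Difference in log2 signal between PI and age-matched control mucosa for each aquaporin probe set at 3, 14 and 60 days, with 95% confidence intervals; filled points passed an adjusted p of 0.05. Aqp5 at 3 days, at -1.01, is the farthest from 0, and no interval at 14 or 60 days carries a filled point.

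The other aquaporins of the array were not called between injured and control mucosa. Their mean signal on an array was 5.5 to 5.89 in mucosa and 5.69 to 5.91 in fibroblasts, and whether it lies above background was not tested. Of 8 genes measured, including Aqp2 of the kidney collecting duct, Aqp7 and Aqp9, which carry glycerol, and Mip of the lens, none passed the test at 3, 14 or 60 days, and their median difference at 3 days was -0.09 beside -0.01 over all probe sets. The 2 with the highest mean were Aqp12a (-0.18, adjusted p = 0.361) and Aqp9 (-0.34, adjusted p = 0.30). Within injured mucosa Aqp7 passed the moderated F test across the 3 PI groups (adjusted p = 0.00441) and rose by 0.42 (SE 0.13, adjusted p = 0.0189) from 3 to 14 days, and it was named after its values were seen.

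Epithelial ion transporters set the osmotic gradient that water follows. Of 18 measured, 3 rose and 2 fell at 3 days PI, 5 in all, beside 23% of all probe sets called at that time (11% higher and 12% lower). The counts of the lists that follow stand beside the same shares, and nothing particular to a list is read from them. Slc26a4, an anion exchanger, rose by 1.71 (SE 0.34, adjusted p = 0.000905), and Cftr, the chloride channel mutated in cystic fibrosis, rose by 1.66 (SE 0.16, adjusted p = 1.59e-07). Kcne3, a potassium channel subunit, rose by 1.25 (SE 0.16, adjusted p = 6.24e-06). Scnn1a, the alpha subunit of the epithelial sodium channel, fell by 0.91 (SE 0.19, adjusted p = 0.00123), and the second gene that fell was Sgk1, given below. The other subunits of that channel differed by 0.03 (Scnn1b) and 0.07 (Scnn1g), with adjusted p values of 0.894 and 0.80; these 2 genes were named after their values were seen. The list's median was -0.04.

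Among 14 genes of mucus and airway secretions, 1 rose and 4 fell at 3 days, beside 11% higher and 12% lower over all probe sets, with a median of -0.37. Bpifb1, a secreted airway defense protein, rose by 2.70 (SE 0.30, adjusted p = 1.15e-06). Tff2, which encodes a trefoil factor secreted with mucins, fell by 3.49 (SE 0.65, adjusted p = 0.000467), Lpo, the lactoperoxidase of airway secretions, by 1.32 (SE 0.32, adjusted p = 0.00474), and Spdef, a transcription factor of secretory cells, by 1.15 (SE 0.23, adjusted p = 0.000825). The fourth gene that fell was Pigr, the receptor that carries IgA into secretions, by 0.59.

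Genes of the osmotic stress response had 3 of 10 members lower at 3 days, beside 12% of all probe sets, and none higher. Sgk1, a kinase induced by cell volume change and corticosteroids, fell by 0.47 (SE 0.12, adjusted p = 0.00815), Stk39, a kinase that activates chloride cotransporters, by 0.45 (SE 0.12, adjusted p = 0.00972), and Slc6a6, the taurine transporter, by 0.31 (SE 0.09, adjusted p = 0.0148). The median of that list was -0.19. None of the 8 measured genes of the dystrophin complex, which anchors Aqp4, passed the test, with a median of -0.26. The 2 with the highest mean, Sgca and Dag1, differed by -0.46 (adjusted p = 0.245) and 0.16 (adjusted p = 0.414). At 14 and 60 days no member of these 5 lists was called, beside 1.92% and 0.0387% of all probe sets.

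**Figure D3:**
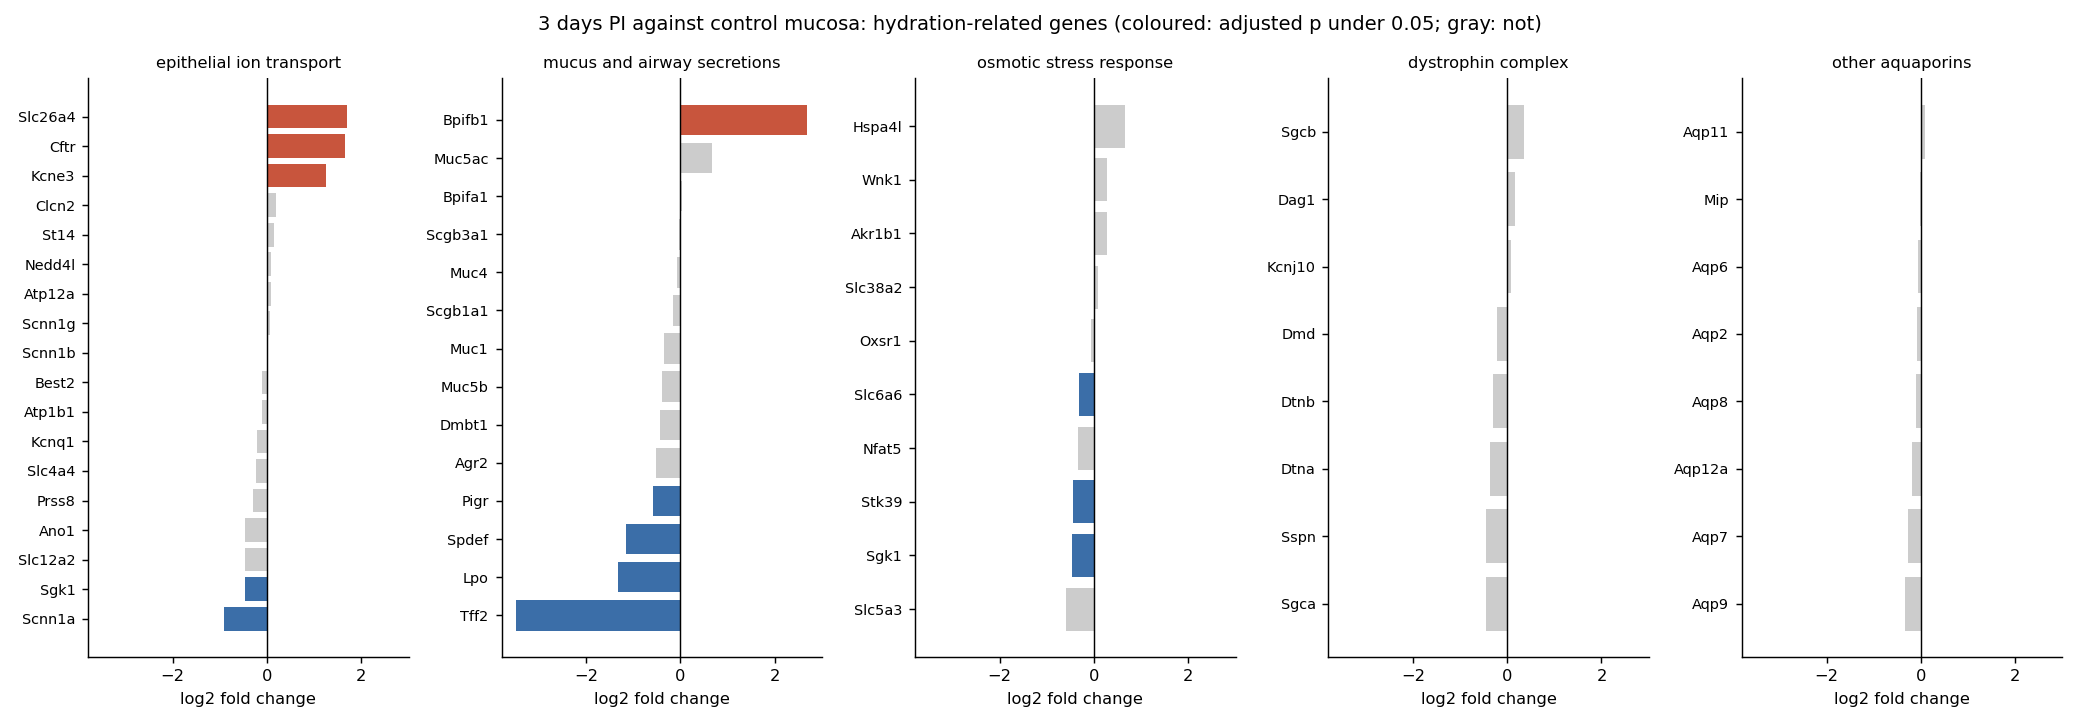
Log2 fold change of 3-day PI over control mucosa for the measured genes of 5 hydration-related lists, 1 bar a gene; red and blue bars passed an adjusted p of 0.05 and gray bars did not. Cftr, Slc26a4 and Kcne3 rose between 1.25 and 1.71, Tff2 fell by 3.49, and all 8 bars of the other aquaporins are gray.

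Markers of epithelium and glands, where Aqp5 is made, were read at 3 days PI as well. Of 11 superficial epithelium markers 2 were lower, beside 12% of all probe sets: Upk1a, a uroplakin of surface cells, fell by 2.97 (adjusted p = 1.93e-08) and Krt4, a keratin of mucosal surface cells, fell by 0.68 (adjusted p = 0.0079). The mean signal of that list was 11.62 to 12.19 in 3-day controls and 10.83 to 11.59 after injury. Of 8 gland acinar markers 4 fell and 2 rose, with Bhlha15, a transcription factor of serous secretory cells, lower by 1.88 and the kallikrein Klk1 higher by 3.60. The mean of the gland list was 8.85 to 9.54 in controls and 8.87 to 9.22 after injury. Beside Aqp4, 7 of 10 fast muscle markers fell at 3 days, and none rose, beside 12% of all probe sets lower and 11% higher. The 8 slow muscle markers measured went the other way in mean signal, with 7.71 to 8.16 in 3-day controls and 8.58 to 9.29 after injury. Of 5 ciliated cell markers, which are of airway epithelium, 3 rose and none fell at 3 days, beside 11% of all probe sets higher and 12% lower. At 14 days again 3 rose and none fell, beside 1.92% of all probe sets called in either direction. The mean signal of these markers was 7.74 to 8.0 in 3-day controls and 8.40 to 9.13 after injury. At 14 days it was 7.85 to 8.01 in controls and 8.73 to 9.24 after injury. The part of these cell types in the aquaporin signals was not tested.

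The genes whose signal followed each aquaporin most closely over the 23 mucosa arrays were named as a description, since the arrays share groups, animals of an age and preparation. For Aqp5 they were Arg1, Rab4a, Slc25a33, Timm29 and Nipal2, with Pearson's r from 0.93 to 0.96 and r within groups from 0.69 to 0.89. All 5 were lower at 3 days PI, beside 12% of all probe sets, Arg1 by 1.58 (adjusted p = 1e-04 in limma). They were picked by their r with Aqp5 over arrays that include the 3-day ones, so this count is not a separate result. For Aqp3 they were Psca, Tmem265, Ly6g6c, C20h6orf15 and Calml5, with r of 0.96 to 0.97, and r within groups was still 0.94 to 0.96. Of those 5, Tmem265 alone was called at 3 days (-0.56, adjusted p = 0.0494). For Aqp4 probe set 1372190_at they were Prom1, Pls1, Ptprz1, Dsel and Rnf128 (r = 0.84 to 0.89), and for Aqp1 Dapk1, Ndrg1, C1s, Csf1 and Tec (r = 0.84 to 0.86). Among the aquaporins, the Aqp4 probe sets 1368981_at and 1372190_at correlated at 0.74 and the 2 of Aqp1 at 0.58.

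In cultured fibroblasts Aqp3, Aqp5 and 2 probe sets of Aqp4 were far lower than in mucosa, while Aqp1 did not pass the test. Naive fibroblasts were set against 60-day control mucosa, from rats of the same age, although sample kind, culture and pooling differ along with the comparison. Aqp3 read 4.47, 4.58 and 5.46 in the cells and 12.72 and 12.81 in mucosa, a difference of -7.92 (SE 0.27, adjusted p = 8.57e-21 in limma). Aqp5 read 6.07, 5.72 and 5.97 against 12.77 and 12.70, a difference of -6.82 (SE 0.20, adjusted p = 1.24e-22).

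Aqp4 differed by -8.27 by 1372190_at (SE 0.16, adjusted p = 3.03e-27) and by -3.12 by 1368981_at (SE 0.26, adjusted p = 1.06e-11), while 1387397_at differed by -0.17 (adjusted p = 0.501). The Aqp4 signals of 1372190_at in the fibroblast cultures, 2.94 to 3.42, lay near the lowest signal of the table, 2.72. The naive fibroblast mean was above 16.5% of all probe sets for Aqp3, 32.4% for Aqp5, 7.52% for Aqp4 by 1368981_at and 0.738% by 1372190_at. The values used carry no detection call, so whether these signals lie above background was not tested, and no fold is given for them. Aqp1 differed by 0.01 (95% confidence interval -0.67 to 0.69) and 0.47 (-0.38 to 1.31) in its 2 probe sets, with adjusted p values of 0.975 and 0.345. In this comparison 4 of the 7 aquaporin probe sets were called, beside 56.9% of all, and all 4 were lower, beside 21% of all, with no overlap between the groups, beside 74.5% of all. The median difference of all probe sets was 0.15 in this comparison.

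**Figure D4:**
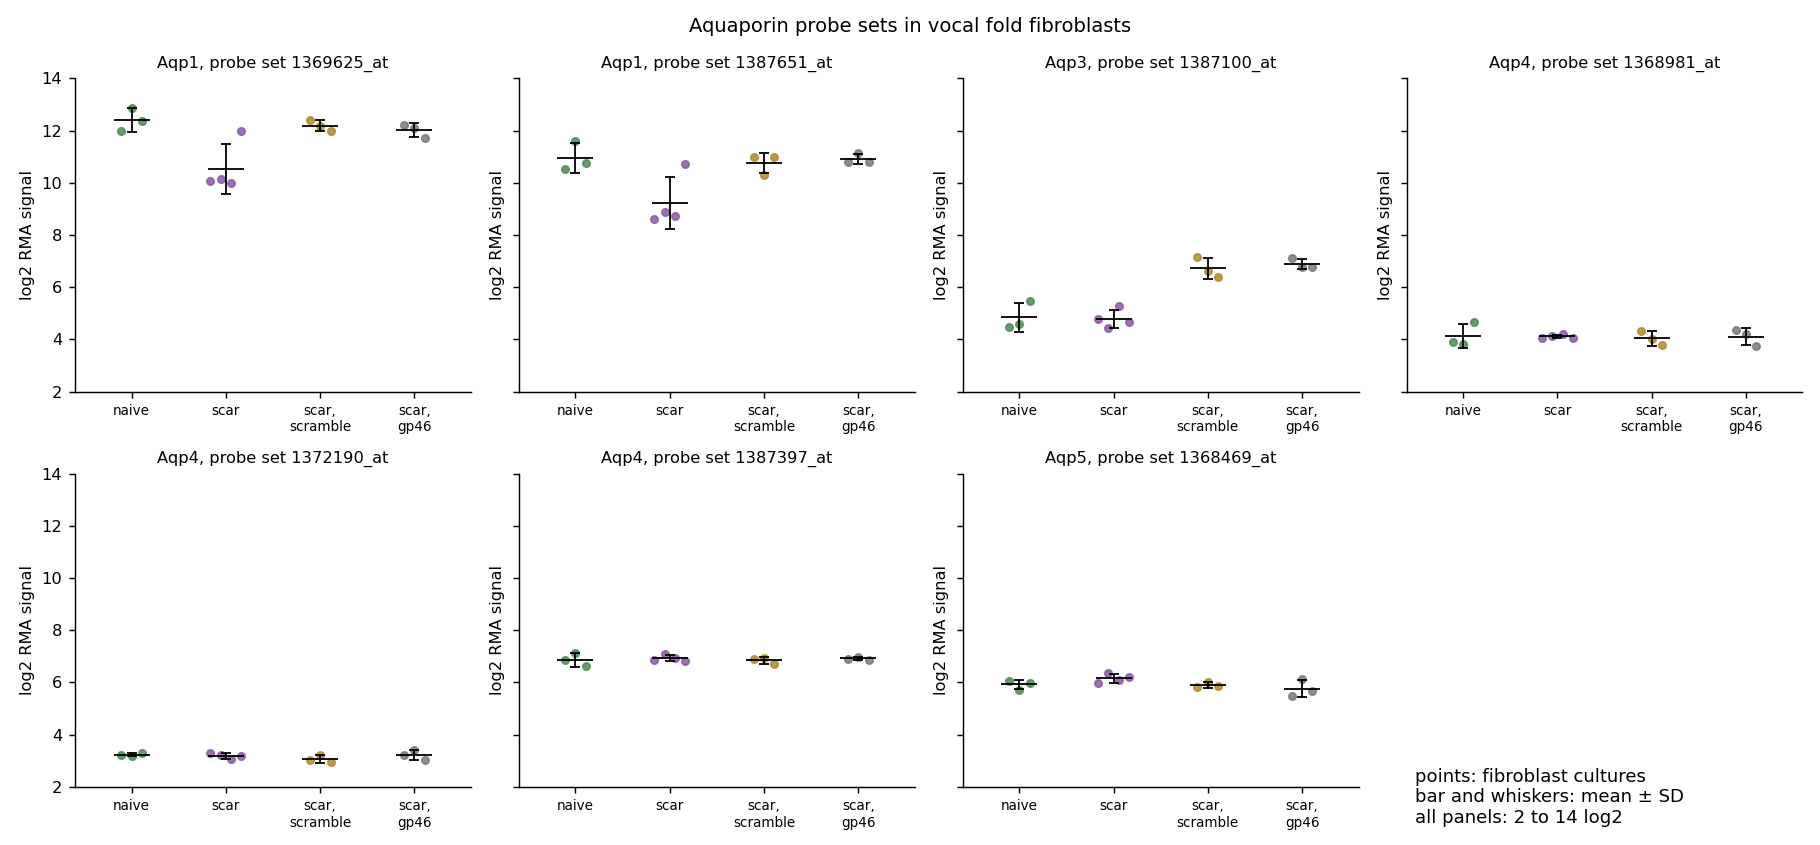
Log2 RMA signal of the 7 aquaporin probe sets in 13 fibroblast cultures, each point a culture, with the group mean and 1 SD; all panels share an axis from 2 to 14. Aqp1 is lower in 3 of 4 untransfected scar cultures, with scar culture 4, at 11.98 and 10.73, near the lower naive ones, and Aqp3 is higher in the cultures given siRNA.

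Scar fibroblasts differed from naive ones in Aqp1. For 1369625_at the naive cultures read 11.99, 12.88 and 12.36 and the scar cultures 10.05, 10.15, 10.00 and 11.98. Scar cultures 1 to 3 lay far below all naive cultures, and scar culture 4 was level with the lowest of them. The fall of 1.86 (SE 0.41, 3.64-fold lower) had an adjusted p of 0.029 in limma. For 1387651_at the scar cultures read 8.60, 8.88, 8.74 and 10.73 and the naive ones 10.51, 11.60 and 10.76, with a difference of -1.72 (SE 0.44, adjusted p = 0.0553). In all, 1 of 7 aquaporin probe sets was called, beside 3.57% of the array, and for the same 1 the groups did not overlap, by 0.01, beside 15.9% of the array.

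The Aqp1 call of 1369625_at was lost when any single culture other than scar culture 4 was left out, with adjusted p values from 0.0588 to 0.136, and when only these 7 cultures were fitted (adjusted p = 0.128). Without scar culture 4, 1387651_at was called as well, at -2.21 (adjusted p = 0.00138). Other cells varied between the scar cultures: the mean of the fast muscle markers was 9.04, 6.64, 7.48 and 6.66 in cultures 1 to 4, and that of the cartilage markers 7.14, 8.11, 6.10 and 6.39. The endothelium markers averaged 6.59 to 6.80 in scar and 6.52 to 6.76 in naive cultures. The 8 mural cell markers, of pericytes and smooth muscle, averaged 8.76 to 9.77 in scar and 8.37 to 8.67 in naive cultures, without overlap. Of these markers 2 rose, beside 3.57% of all probe sets called in either direction, and 15.9% of single probe sets had no overlap. The part of these cells in the Aqp1 values was not tested. The other 5 probe sets differed by between -0.06 and 0.23 between scar and naive cultures, and none was called.

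Scramble siRNA, the control transfection, came with higher Aqp3 and Aqp1. Aqp3 read 7.15, 6.61 and 6.38 with scramble siRNA and 4.78, 4.42, 5.27 and 4.66 in untransfected scar cultures. All transfected cultures were higher, and the rise of 1.93 (SE 0.26) had an adjusted p of 0.000272 in limma and held in all 18 alternatives. The untransfected mean was above 15.6% of all probe sets, and no fold is given for the same reason as above. Aqp1 read 12.39, 12.19 and 11.98 by 1369625_at, and rose by 1.64 (SE 0.41, adjusted p = 0.0118). By 1387651_at it rose by 1.52 (SE 0.44, adjusted p = 0.027), a call lost without scar culture 1, 2 or 3 or scramble culture 1 or 3, with adjusted p values from 0.0603 to 0.0921. The Aqp1 groups overlapped through scar culture 4. These calls were 3 of 7 beside 22.8% of all probe sets, and 1 of 7 had groups without overlap, beside 29.1%. Markers of other cells were also lower with scramble siRNA than in untransfected scar cultures, without overlap: the mural cell markers averaged 7.89 to 8.41 against 8.76 to 9.77, the fast muscle markers 6.04 to 6.52 against 6.64 to 9.04 and the cartilage markers 5.79 to 6.02 against 6.10 to 8.11. Endothelium markers were higher, at 6.81 to 6.99 against 6.59 to 6.80. The part of these cells in the aquaporin values was not tested. Transfection reagent, siRNA and the extra day in fresh medium cannot be told apart in this comparison.

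The siRNA against gp46 did not separate from scramble siRNA for any aquaporin. Its target Serpinh1 read 12.43, 12.64 and 12.67 with gp46 siRNA and 12.98, 12.96 and 12.93 with scramble siRNA in probe set 1371310_s_at, a difference of -0.38 with an adjusted p of 1 in limma, and 5.14, 5.02 and 5.08 against 5.07, 5.06 and 5.38 in 1369009_at. No probe set of the array was called (0%), while 802 had an unadjusted p under 0.05. The aquaporin differences ran from -0.17 to 0.16. Their 95% confidence intervals were -1.11 to 0.78 and -0.88 to 1.19 for the 2 Aqp1 probe sets and -0.45 to 0.77 for Aqp3, so that changes of that size were not detectable with 3 cultures a group.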

How the data were processed

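The values were the log2 signals that the authors deposited: per the labels and methods they hybridized RNA to Affymetrix Rat Genome arrays and summarized the probes with RMA (R package affy; versions not given in the sources used here). RMA subtracts background and gives all arrays the same distribution, so a shift of all transcripts cannot be seen, and without single-probe signals background correction was not varied. The table held 31099 probe sets on 36 arrays, with values between 2.72 and 14.74. The number of arrays a group, 2 to 5, limits the precision.

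Here 57 Affymetrix control probe sets were removed. Symbols came from the platform annotation and were updated through gene number: 20826 probe sets had 1 symbol, 436 several and 9780 none. Comparisons used lmFit, contrasts and eBayes of limma (version 3.58.1, R 4.3.3), with 1 fit over the 23 mucosa arrays, 1 over the 13 fibroblast arrays and 1 over all 36 for cells against mucosa. The EBarrays model of the methods was not used; a lognormal-normal model written here (20 EM iterations, posterior over 0.95) was an alternative. The code was tested on simulated data. For lists, a gene was read by its probe set of median mean signal. The text names all member probe sets, the 5 genes nearest each member in Pearson's r, Serpinh1, and per list up to 4 called genes of largest change or the 2 of highest mean; further names are genes of small counts and cell type markers, picked after their values were seen. The members and lists were chosen with earlier results of these data known. The sample titles only number the replicates, so same-numbered arrays were treated as unpaired and the main fits used no block. The r of their deviations was -0.16 to 0.26 between PI and control arrays. It was 0.08 to 0.12 between scar and naive cultures and -0.10 to 0.01 between scramble and untransfected ones. Between gp46 and scramble cultures it was 0.35, 0.09 and 0.44, and the block gave no aquaporin call there either. Whether same-numbered cultures came from the same source was not tested. Alternatives covered the feature table, a 30% filter on low signals, normalization, array weights, variance prior, samples fitted, pooled controls, a replicate block and leaving out each array. Figures used matplotlib 3.10.9 in Python 3.11.15.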

Additional observations from a re-analysis of the deposited data

Results flagged for a closer look

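Each of the 7 probe sets was tested in each group of 4 or 5 arrays, 28 tests in all, by Dixon's test at 95%. In 5 of them a single array lay apart from its group. Chance alone flags about 1 such test in 20, but these tests share arrays and genes, so the 5 are not read against that rate. For Aqp1, scar culture 4 read 11.98 by 1369625_at, with the other 3 cultures between 10.00 and 10.15, and 10.73 by 1387651_at, with the others between 8.60 and 8.88. For Aqp3, the 3-day PI array 5 read 11.40, with the others between 12.08 and 12.23, and the 14-day PI array 1 read 12.22, with the others between 12.40 and 12.42. For Aqp4 by 1387397_at, the 3-day PI array 5 read 7.86, with the others between 6.73 and 7.06.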

How the results depend on the processing

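The Aqp5 fall at 3 days PI, its rise from 3 to 14 days, the Aqp3 rise with scramble siRNA and the 4 falls in fibroblasts against mucosa kept direction and call in every alternative computed for them. Of 1923 alternative values of single aquaporin probe sets, 1789 kept direction and side of the threshold, 35 lost a call, 32 gained one and 67 changed sign. Every sign change was in a value that was not called to begin with. Of 2360 list counts, 253 moved by over 1.5 times. The small number of arrays, above all 2 controls at 60 days, limits what could be detected. The causes of the changes below were not tested.

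The number of aquaporin probe sets called at 3 days PI, 3, was 1 (of 4 genes) with the mean of a gene's probe sets and 1 with a replicate block of same-numbered arrays, where Aqp1 (adjusted p = 0.0679) and Aqp4 (adjusted p = 0.12) lost their calls in limma. Leaving out single arrays gave 1 to 4. At 14 days array weights gave 3 and pooled controls 1 in place of 0, and at 60 days pooled controls gave 3 in place of 0. From 3 to 14 days PI array weights gave 3 and leaving out single arrays 1 to 2, in place of 1. From 14 to 60 days array weights and the omission of the 3 arrays that deviated together each gave 1 in place of 0, and so they did for the injury effect at 3 days against that at 14 and at 60 days; for 3 against 14 days leaving out single arrays gave 0 to 1. For scar against naive cultures the filter on low signals, array weights, an intensity trend, the fit of all 36 arrays and the replicate block each gave 2 in place of 1, the fit of these cultures alone and the lognormal-normal model gave 0, and leaving out single cultures 0 to 2. For scramble siRNA against untransfected scar cultures the lognormal-normal model gave 1 in place of 3. For fibroblasts against mucosa the median probe set of each gene gave 2 (of 4 genes). No replicate block changed another count.

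Sign changes are given on the log2 scale. With array weights, Aqp4 1387397_at was -0.055 at 3 days PI, 0.063 from 3 to 14 days PI and -0.131 for the effect at 3 against 14 days. Aqp3 was -0.038 at 14 days PI, -0.019 for the effect at 14 against 60 days and 0.063 in scar against naive cultures. For the effect at 14 against 60 days Aqp4 1368981_at was 0.125 and Aqp5 -0.014, and with gp46 siRNA Aqp4 1368981_at was -0.019. Without the 3 arrays that deviated together, Aqp4 1387397_at was -0.050, 0.066 and -0.128 in the same 3 comparisons, Aqp3 -0.081 at 14 days PI and -0.059 for 14 against 60 days, and Aqp4 1372190_at -0.061 for 3 against 14 days. With pooled controls, Aqp3 was -0.070 at 14 and 0.152 at 60 days PI, Aqp4 1387397_at -0.010 at 14 days PI, and Aqp1 1369625_at -0.079 in fibroblasts against mucosa. With the replicate block, Aqp4 1387397_at was -0.042 at 3 days PI, -0.188 for 3 against 14 days and 0.051 for 14 against 60 days, Aqp4 1368981_at -0.009 and 0.260 for these effects, Aqp4 1372190_at -0.116 for 3 against 14 days, and Aqp5 -0.027 for 14 against 60 days.

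Leaving out single arrays turned the sign within these ranges. At 14 days PI they were -0.060 to 0.093 for Aqp4 1387397_at and -0.081 to 0.112 for Aqp3, and at 3 days PI -0.050 to 0.231 for Aqp4 1387397_at. From 3 to 14 days PI they were -0.068 to 0.045 for Aqp1 1369625_at, -0.198 to 0.037 for Aqp4 1368981_at and -0.215 to 0.066 for Aqp4 1387397_at, and from 14 to 60 days -0.027 to 0.086 for Aqp1 1369625_at. For the effect at 3 against 14 days they were -0.009 to 0.308 (Aqp4 1368981_at), -0.006 to 0.162 (Aqp4 1372190_at), -0.066 to 0.215 (Aqp4 1387397_at) and -0.286 to 0.023 (Aqp1 1369625_at). For 3 against 60 days they were -0.229 to 0.052 (Aqp4 1387397_at), -0.167 to 0.347 (Aqp4 1372190_at) and -0.641 to 0.080 (Aqp1 1387651_at), and for 14 against 60 days -0.195 to 0.122 (Aqp4 1368981_at) and -0.292 to 0.089 (Aqp1 1369625_at). In scar against naive cultures they were -0.241 to 0.255 (Aqp3), -0.056 to 0.199 (Aqp4 1387397_at) and -0.073 to 0.008 (Aqp4 1372190_at). With gp46 siRNA they were -0.074 to 0.248 (Aqp4 1368981_at), -0.078 to 0.267 (Aqp1 1387651_at) and -0.005 to 0.114 (Aqp4 1387397_at), with scramble siRNA -0.217 to 0.064 (Aqp4 1368981_at), and in fibroblasts against mucosa -0.221 to 0.223 (Aqp1 1369625_at).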
